A study of Mus musculus with 56 samples.

Results

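Expression of 45 genes of mitosis and DNA replication was examined in 56 mouse mammary tumors. The genes were taken by name from the platform annotation, and each was represented by its probe set of highest mean over the 56 arrays. Of the 45 genes, 44 were measured and entered a test of 12508 genes. Ccnb1, which encodes cyclin B1, had no probe set with a single gene symbol, so its expression is not analysed here; only its promoter is counted, in the search for motifs. All tumors grew from p53null mammary fragments that had not themselves been irradiated and that were transplanted orthotopically to the inguinal fat pads of female hosts (BALB/c strain). The endogenous epithelium of every host had been removed at 3 weeks of age, so the fat pads kept stroma without host mammary epithelium. Hosts were irradiated or sham-irradiated 3 days before transplantation, and were either wild type or TGFb1 heterozygote, TGFb1 being a secreted growth factor of the stroma and epithelium. There were 9 tumors of sham-irradiated and 23 of irradiated wild-type hosts, and 6 tumors of sham-irradiated and 18 of irradiated heterozygote hosts. The radiation dose, host age at irradiation and any batch are not given in the sources used here, nor is whether tumors shared a host or a donor fragment, so p-values measure only the spread between these samples.

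A dividing cell first licenses its replication origins with the MCM helicase, copies its DNA with the help of the sliding clamp Pcna and a supply of deoxynucleotides, and then builds a spindle, checks that every chromosome is attached, and splits. E2f1 is a transcription factor of the first, S-phase wave of cell cycle genes, and Foxm1 of the later, mitotic wave. Transcripts of both waves are abundant only in cycling cells, so their level in a tumor is widely read as its proliferative activity. In bulk RNA, fewer cycling cells and less of the transcript per cycling cell cannot be told apart.

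Values are log2 expression as deposited, and a difference of 1 on this scale is a 2-fold change. Of the 44 measured members, 42 exceeded the median of all values, 5.83, on all 56 arrays. Ndc80 did so on 55 arrays and Tyms on 38. Array medians were 5.92 to 6.00 in wild-type hosts and 5.57 to 5.71 in heterozygote hosts, so levels were compared only between irradiated and sham-irradiated hosts of 1 genotype. The 18S ribosomal RNA control was below 11 on 9 arrays: 4 of 9 in sham-irradiated and 2 of 23 in irradiated wild-type hosts, and 1 of 6 and 2 of 18 in heterozygote hosts. The difference between 3' and 5' control probe sets, a sign of RNA integrity, averaged 0.21 ± 0.030 (SD, n = 9) and 0.22 ± 0.16 (SD, n = 23) in sham-irradiated and irradiated wild-type hosts, and 0.40 ± 0.17 (SD, n = 6) and 0.27 ± 0.11 (SD, n = 18) in heterozygote hosts. All 9 epithelial markers were measured, and their mean log2 level averaged 10.98 to 11.23 over the 4 groups. It was as low as 7.52 in 1 tumor of an irradiated wild-type host and 8.41 in 1 of a sham-irradiated one, so not every tumor was rich in epithelial transcripts.

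The mean of the 44 members gives the overall level of the set in a tumor. In sham-irradiated wild-type hosts it ran from 8.87 to 10.15 with a median of 9.77, and in irradiated ones from 8.17 to 10.24 with a median of 9.70. In heterozygote hosts it ran from 9.12 to 9.98 with a median of 9.37 after sham irradiation, and from 8.04 to 9.86 with a median of 9.26 after irradiation. The groups overlapped over most of their range, and each genotype's lowest tumor was one of an irradiated host. These were replicate 57 in wild-type hosts, at 8.17, and replicate 4 in heterozygote hosts, at 8.04. Both arrays also had a low 18S control (10.66 and 10.97) and a large 3' minus 5' difference (0.91, the highest of all arrays, and 0.56). The part of these controls in the low member levels was not tested.

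In wild-type hosts, no member passed the test between irradiated and sham-irradiated hosts (limma with Benjamini-Hochberg adjustment over all genes), nor did any other gene: 0 of 44 members were called, against 0% of all genes tested. At an unadjusted p under 0.05, 1 of 44 members was lower and 0 higher, while of all genes 3.9% were lower and 3.17% higher (7.07% in either direction). The median log2 fold change of the members was -0.071, beside -0.0028 over all genes, and 13 of 44 were positive, against 49.3% of all genes. No member had groups that did not overlap, as was true of 0% of all genes. The 95% intervals of all 44 members lay within -1 to 1, with the lowest bound at -0.93 and the highest at 0.64, so a 2-fold change of a member's mean lay outside the interval in either direction. The sign of the median rested on few arrays. Without the 6 wild-type-host arrays of low 18S and the 3 of heterozygote hosts, a choice made after the data were seen, it was 0.11 with 32 of 44 members positive, and 0 members were called. Without replicate 60 of the sham-irradiated hosts it was 0.0032, without replicate 57 of the irradiated hosts 0.00090, and without replicate 46 or 61 of the sham-irradiated hosts -0.17 or -0.16. Leaving out any other single array gave values from -0.12 (replicate 8) to -0.015 (replicate 17, both of sham-irradiated hosts). Adjusting for 18S gave -0.19, and weighting the arrays -0.16. The share of all genes that was positive without the arrays of low 18S is not given here, so the count of positive members cannot be set beside it.

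E2f1 had the lowest p among members. Its level ran from 7.67 to 8.82 with a median of 8.28 in sham-irradiated wild-type hosts, and from 7.26 to 8.38 with a median of 7.88 in irradiated ones. The ranges overlapped, but the irradiated group sat toward the lower end, and 3 of 23 tumors lay above the sham median. The means were 8.24 ± 0.39 (SD, n = 9) and 7.87 ± 0.30 (SD, n = 23), which is a log2 fold change of -0.37 (SE 0.13, limma adjusted p = 0.502). A second probe set of E2f1 gave -0.17. Foxm1, the mitotic transcription factor, ran from 7.23 to 8.78 (median 7.89) in sham-irradiated and from 5.95 to 8.17 (median 7.63) in irradiated hosts. Its groups overlapped widely, with 4 of 23 irradiated tumors above the sham median. The log2 fold change of Foxm1 was -0.34 (SE 0.19, limma adjusted p = 0.742), and its other probe sets gave -0.15 and -0.061. Without replicate 17 of the sham-irradiated hosts, the Foxm1 value was -0.22. Tyms, the thymidylate synthase that makes thymidine nucleotides, followed at -0.25 (SE 0.14, limma adjusted p = 0.756).

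The members with higher means and the lowest p were Mcm3, Ndc80 and Pcna. Mcm3, a subunit of the replicative helicase, ran from 9.19 to 10.26 (median 10.05) in sham-irradiated and from 9.03 to 10.84 (median 10.13) in irradiated wild-type hosts. The irradiated range contained the sham range, and 15 of 23 tumors lay above the sham median, for a log2 fold change of 0.24 (SE 0.17, limma adjusted p = 0.838). Ndc80, which holds microtubule ends at the kinetochore, had 0.22 (SE 0.21), and Pcna 0.11 (SE 0.12). For Pcna 18 of 23 irradiated tumors lay above the sham median, the largest such count among the members named in this comparison, yet its adjusted p was 0.907 (limma). Mki67, the classic proliferation marker, ran from 10.16 to 12.36 (median 11.53) in sham-irradiated and from 10.01 to 11.80 (median 11.33) in irradiated hosts. The sham group thus held both a very high and a very low tumor. The log2 fold change was -0.16 for Mki67 (SE 0.17), -0.13 for Top2a, the mitotic topoisomerase, -0.22 for Mcm2 and 0.058 for the mitotic kinase gene Cdk1.

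**Figure D1:**
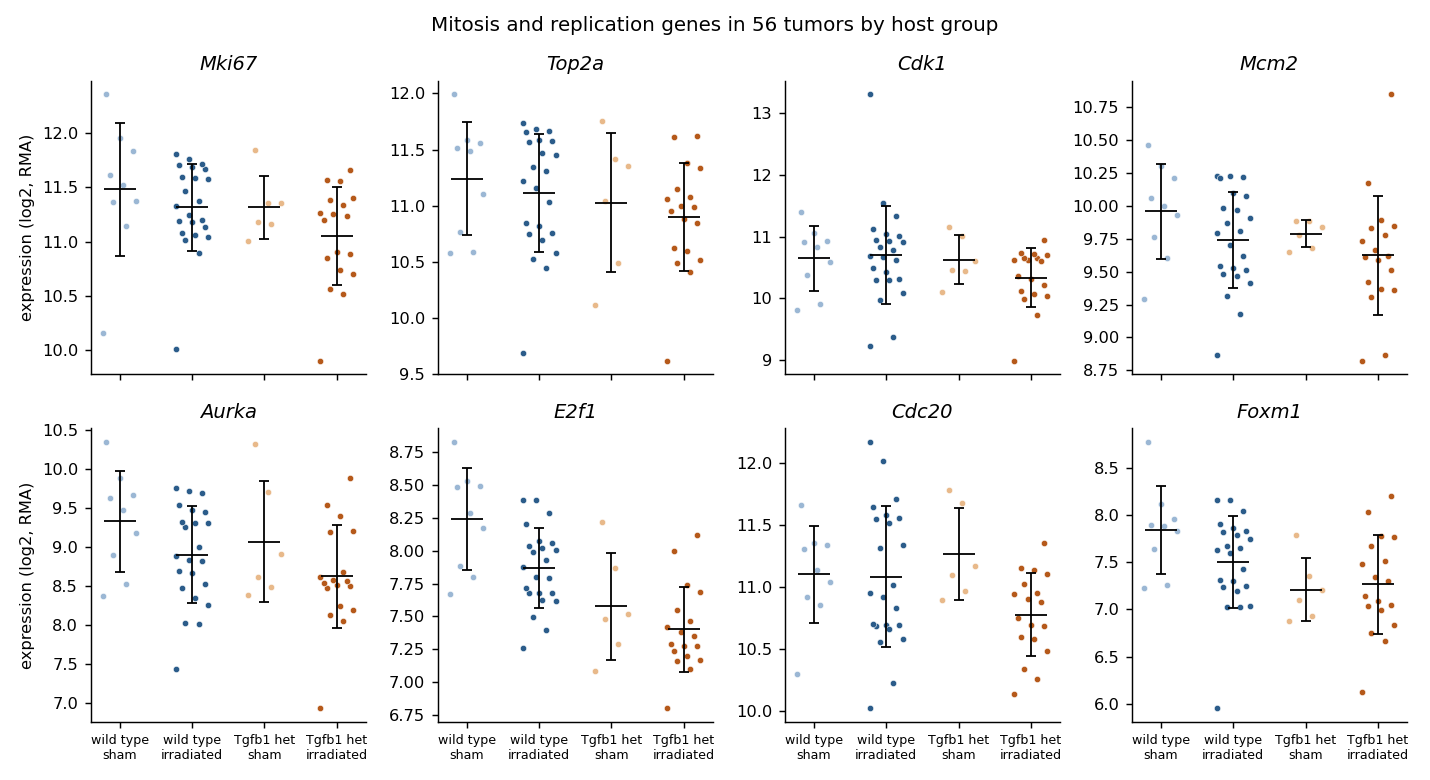
Log2 expression (vertical axis, scaled separately per gene) of 8 members in each of 56 tumors by host group; points are tumors, the long bar is the group mean and the whiskers are ± 1 SD. The groups overlap for every gene shown, and 1 tumor of each irradiated group lies well below the rest for Mki67, at 10.01 and 9.90.

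In heterozygote hosts the members lay lower after irradiation more often than genes at large, but 0 of 44 were called (limma), against 0% of all genes. At an unadjusted p under 0.05, 2 members were lower and 0 higher, while of all genes 2.95% were lower and 2.89% higher (5.84% in either direction). The median log2 fold change of the members was -0.22, beside 0.0088 over all genes, and 4 of 44 were positive, against 51.8% of all genes. Members move together from tumor to tumor, so their signs are not independent of each other. The 95% intervals ran from -1.07 to 0.85 and lay within -1 to 1 for 40 members. No member had groups that did not overlap, against 0% of all genes. With the 3' minus 5' control difference as a covariate, the median was -0.49, with 0 of 44 positive and 24 lower at an unadjusted p under 0.05, and still 0 called. Without the arrays of low 18S the median was -0.21. The shares of all genes under these 2 settings are not given here, so the counts of members cannot be set beside them.

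Cdc20, the activator of the anaphase-promoting complex, had the lowest p. It ran from 10.90 to 11.78 with a median of 11.13 in sham-irradiated heterozygote hosts, and from 10.14 to 11.35 with a median of 10.82 in irradiated ones. The ranges overlapped, though most irradiated tumors lay below the lowest sham tumor, and 3 of 18 lay above the sham median. The means were 11.26 ± 0.37 (SD, n = 6) and 10.78 ± 0.33 (SD, n = 18), which is a log2 fold change of -0.49 (SE 0.21, limma adjusted p = 0.805). The other probe sets of Cdc20 gave -0.39 and -0.25. Cenpf, a large kinetochore protein of G2 and mitosis, ran from 8.96 to 10.23 (median 9.58) and from 7.68 to 10.01 (median 9.24), with 3 of 18 irradiated tumors above the sham median. Cenpf thus had -0.53 for irradiated minus sham (SE 0.27, limma adjusted p = 0.853), and -0.28 and -0.22 by its other probe sets. Mcm3 came next at -0.38 (SE 0.20, limma adjusted p = 0.873).

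Among the few positive values in heterozygote hosts, Mad2l1, a spindle checkpoint protein that restrains Cdc20, had the lowest p. It ran from 9.86 to 10.64 (median 10.26) in sham-irradiated and from 9.23 to 12.66 (median 10.40) in irradiated hosts. The highest value was that of replicate 49, with the next at 11.56, and 14 of 18 irradiated tumors lay above the sham median. Mad2l1 had 0.30 for irradiated minus sham (SE 0.27, limma adjusted p = 0.932), and 0.18 without replicate 49. Cdc6, which loads the helicase at origins, had 0.16 (SE 0.26), and the mitotic kinase gene Aurkb 0.14 (SE 0.27). All 3 turned negative with the 3' minus 5' covariate. Mki67 had -0.26 (SE 0.21), Top2a -0.13, Cdk1 -0.29, Mcm2 -0.16, Foxm1 0.056, Pcna -0.020 and E2f1 -0.17.

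By role, the helicase genes had mostly positive values in wild-type hosts and only negative ones in heterozygote hosts, a difference that was not tested by role. Over all genes, 49.3% were positive in wild-type and 51.8% in heterozygote hosts. Of the 6 MCM subunits, 5 had positive values in wild-type hosts, with a median of 0.038, and 0 in heterozygote hosts, with a median of -0.24. The 5 midzone and cytokinesis genes, which split the cell after anaphase, had 3 positive values and a median of 0.032 in wild-type hosts, and 0 positive with a median of -0.20 in heterozygote hosts. The 5 centromere and kinetochore genes had 1 and 0 positive values, with medians of -0.077 and -0.39. The 4 spindle checkpoint genes had 1 positive value in each genotype, which was Mad2l1 both times. The 4 spindle motor and assembly genes had 1 and 0 positive values, the 4 genes of mitotic kinases and the chromosomal passenger complex 0 and 1, and the 3 origin loading genes 0 and 1. Both partners of the anaphase-promoting complex, Cdc20 and Ube2c, were negative in both genotypes, as were Mki67 and Top2a. The 3 measured genes of cyclins and Cdk1 had 1 and 0 positive values, and the 4 clamp and nucleotide supply genes 1 and 0. The 2 transcription factor genes had 0 and 1. None of these members was called.

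**Figure D2:**
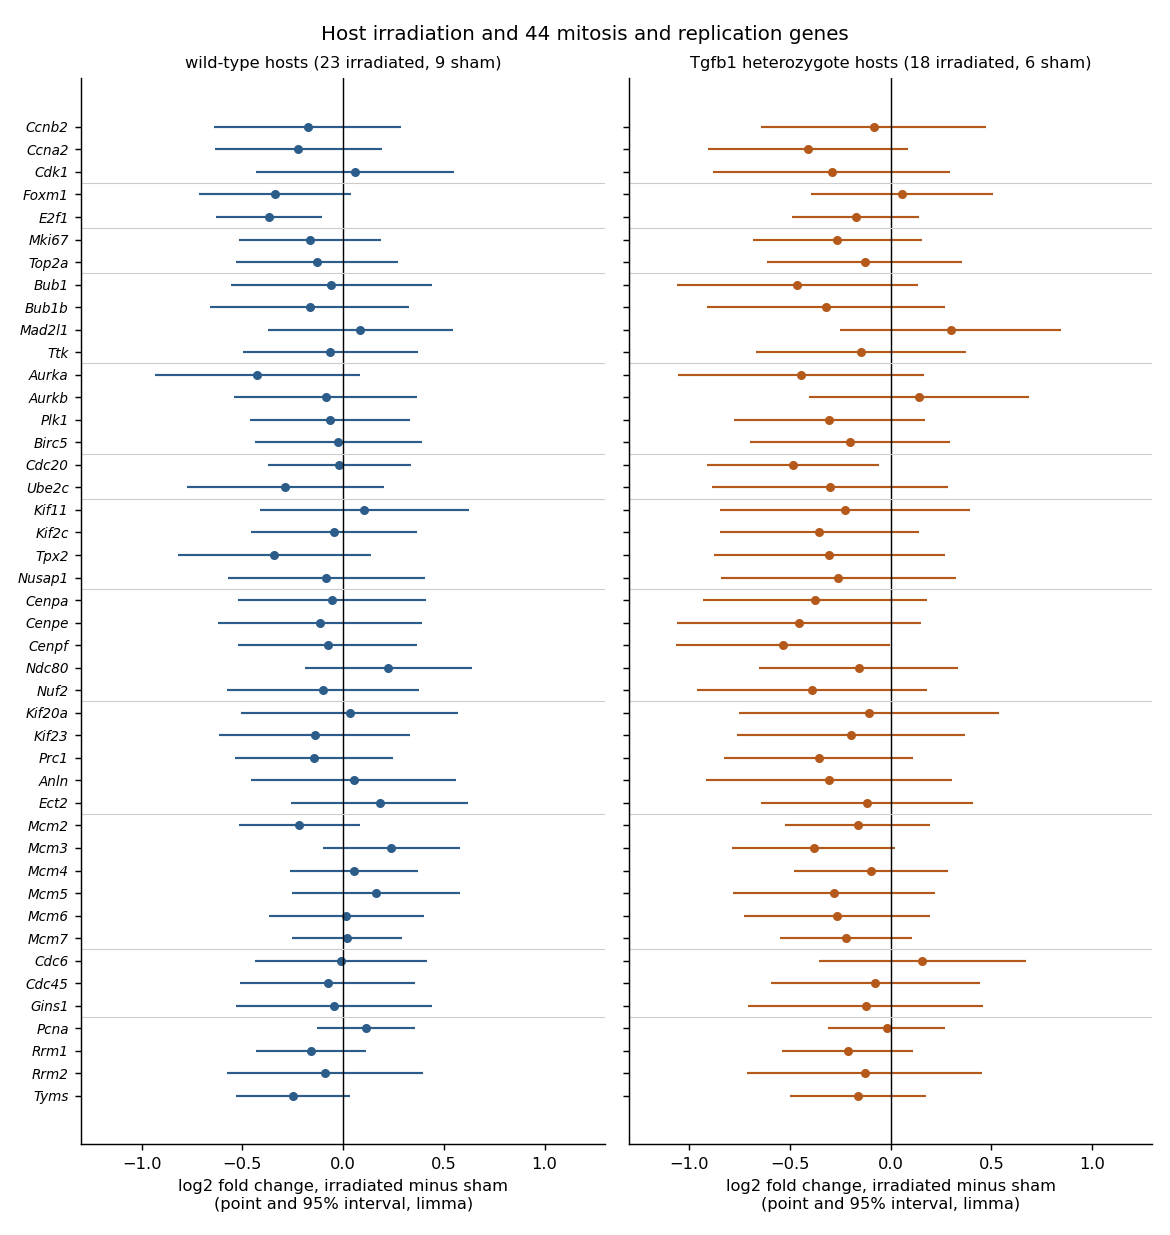
Log2 fold change of irradiated minus sham-irradiated hosts (horizontal axis) for 44 members ordered by role, in wild-type hosts (left) and Tgfb1 heterozygote hosts (right); points are limma estimates and lines 95% intervals. In wild-type hosts 13 points lie above 0 and in heterozygote hosts 4, and every interval in wild-type hosts lies between -0.93 and 0.64.

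The irradiation effects of the host genotypes were compared directly by the difference of the log2 fold changes, heterozygote minus wild type. Again 0 of 44 members were called (limma), against 0% of all genes, and 1 was lower and 0 higher at an unadjusted p under 0.05, while of all genes 2.15% were lower and 2.69% higher (4.84% in either direction). The median difference of the members was -0.15, beside 0.012 over all genes, with 11 of 44 positive, against 51.8% of all genes. It was -0.36 without the arrays of low 18S, -0.43 with the 3' minus 5' covariate, -0.051 with the 18S covariate and 0.049 with array weights. Without replicate 46 of the sham-irradiated wild-type hosts it was -0.015, without replicate 57 of the irradiated ones -0.24, and without replicate 15 of the sham-irradiated heterozygote hosts -0.071. Mcm3 had the largest difference, -0.62 (SE 0.26, 95% interval from -1.15 to -0.093, limma adjusted p = 0.999). Its level after irradiation was higher in 15 of 23 tumors than the sham median in wild-type hosts, and in 5 of 18 in heterozygote hosts. Cdc20 and Mcm5, another helicase subunit, had differences of -0.47 and -0.44. Foxm1 had 0.39 (SE 0.29), and E2f1 0.20. The intervals for the difference lay within -1 to 1 for 32 of 44 members.

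Averaged over both genotypes, 0 of 44 members were called (limma), against 0.00799% of all genes. At an unadjusted p under 0.05, 2 members were lower and 0 higher, while of all genes 4.02% were lower and 3.75% higher (7.77% in either direction). The median was -0.14, beside 0.0014 over all genes, and 6 of 44 were positive, against 50.4% of all genes, with 49.6% of all genes negative. Without the arrays of low 18S it was -0.051 with 15 positive, with the 18S covariate -0.21, and with the 3' minus 5' covariate -0.27, with 22 members lower at an unadjusted p under 0.05 and 0 called. For these settings the shares of all genes are not given here, so the counts of members cannot be set beside them. E2f1 had -0.27 (SE 0.10, limma adjusted p = 0.477). Aurka, a kinase of spindle poles, had the lowest value, -0.44 (SE 0.20, limma adjusted p = 0.586). In wild-type hosts Aurka ran from 8.37 to 10.34 (median 9.47) after sham irradiation and from 7.44 to 9.75 (median 8.89) after irradiation. In heterozygote hosts it ran from 8.38 to 10.31 (median 8.76) and from 6.94 to 9.88 (median 8.55). The groups overlapped in both genotypes, and 4 of 23 and 5 of 18 irradiated tumors exceeded the sham median. Ccna2, cyclin A2, had -0.32 (SE 0.16, limma adjusted p = 0.647), and -0.095 by its second probe set. Mad2l1 was highest at 0.19.

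Lists of other genes of the same processes were counted in the same way. Of 44 other replication genes, 42 were tested and 0 were called in any of these comparisons (limma). Their median was 0.047 in wild-type and -0.12 in heterozygote hosts, with 27 and 16 of 42 positive. Gins4, a subunit of the replicative helicase complex, had 0.31 and 0.38, and 0.34 on average (limma adjusted p = 0.369). Recql4, a helicase needed at replication start, had -0.55 in heterozygote hosts (limma adjusted p = 0.709). Gmnn, the licensing inhibitor geminin, had 0.42 in wild-type hosts. Of 79 other mitosis genes, 75 were tested and 0 called, with medians of -0.036 and -0.20 and 32 and 9 of 75 positive. Among them, Troap had -0.34 and Espl1, the protease separase that cuts cohesin, -0.57 in heterozygote hosts, and the kinetochore genes Cenpq and Cenpl 0.38 each in wild-type hosts. All 17 genes of the E2F family and its MuvB partner complex were tested and 0 called. Their median was 0.064 in wild-type and 0.0020 in heterozygote hosts, with 13 and 9 of 17 positive. In that list E2f3 had 0.25 and E2f5 0.31 in wild-type hosts, and Lin52 -0.31 and Mybl2 -0.47 in heterozygote hosts.

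Of the cell type markers, 0 were called in any comparison (limma), and their values are given as descriptions. In heterozygote hosts all 7 fibroblast markers had negative values, with a median of -0.50. In wild-type hosts 6 of the 7 did, with a median of -0.21. The summed log2 level of the 7 ran from 68.5 to 89.7 in sham-irradiated and from 63.6 to 90.6 in irradiated heterozygote hosts, and from 67.9 to 84.5 and from 70.2 to 88.2 in wild-type hosts. Of the endothelial markers, all 5 had negative values in wild-type hosts and 3 in heterozygote hosts. The medians of these markers were -0.35 and -0.034. Their summed level ran from 34.1 to 60.8 in sham-irradiated and from 34.2 to 45.2 in irradiated wild-type hosts, and from 31.2 to 48.1 and from 33.7 to 52.6 in heterozygote hosts. The sum of 60.8 belonged to replicate 46 of the sham-irradiated wild-type hosts, whose member mean of 8.87 was the lowest of its group. The 8 measured leukocyte markers of 10 had medians of 0.12 and 0.14 in wild-type and heterozygote hosts, the 3 adipocyte markers of 5 had -0.29 and 0.51, and the 4 skeletal muscle markers -0.20 and 0.39. The only measured red cell marker of 3, Alas2, the heme synthesis enzyme of erythroid cells, had the lowest unadjusted p of all markers. In wild-type hosts its mean was 7.37 ± 2.20 (SD, n = 9) without and 5.71 ± 0.36 (SD, n = 23) with irradiation of the host, a difference of -1.66 (limma adjusted p = 0.238), and it had 0.31 in heterozygote hosts and 1.97 for the difference between genotypes (limma adjusted p = 0.999). The 9 epithelial markers had medians of 0.12 in wild-type and 0.30 in heterozygote hosts, with 6 and 7 of 9 positive. Among the negative ones in heterozygote hosts was the basal keratin gene Krt5. Its means there were 8.69 ± 2.97 (SD, n = 6) after sham irradiation and 6.75 ± 1.09 (SD, n = 18) after irradiation, a difference of -1.94 (limma adjusted p = 0.676). No marker was at 0, since this log2 scale has no true zero. The part of these cell types in the member levels was not tested.

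Within groups, the members varied from tumor to tumor as a block. Group means were subtracted, and Pearson's r was taken over the 32 tumors of wild-type hosts and the 24 of heterozygote hosts. All 946 pairs of members were positively correlated in both genotypes, with a median r of 0.71 and 0.67. The median r of a member with any other gene tested was 0.013 and 0.0059. These are descriptions over tumors that share arrays and normalization. Members also varied more than most genes, with a median within-group SD of 0.57 and 0.50, beside 0.41 and 0.37 over all genes, and 38 and 37 of 44 members exceeded the all-gene median. The widest-varying members included Kif20a, at an SD of 0.76 in wild-type hosts, and the narrowest included Pcna, at 0.30 and 0.29.

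Mitosis genes held together more tightly than replication genes. Pairs among the 30 measured mitosis genes had a median r of 0.78 in wild-type and 0.74 in heterozygote hosts, pairs among the 13 replication genes 0.62 and 0.63, and pairs of 1 of each 0.65 and 0.61. The members that followed the mean of the others most closely were Kif20a, Tpx2, Bub1b, Bub1 and Ube2c. Kif20a, a motor of the cytokinetic midzone, had r of 0.95 and 0.95, and Tpx2, which activates Aurka on the spindle, 0.95 and 0.94. Bub1b had 0.96 and 0.93 and Bub1 0.92 and 0.91, both proteins of the spindle checkpoint. Ube2c, the ubiquitin-conjugating enzyme of the anaphase-promoting complex, had 0.93 and 0.88. The loosest were Tyms with 0.57 and 0.40, E2f1 with 0.58 and 0.60, Rrm2, the regulated subunit of ribonucleotide reductase, with 0.56 and 0.68, Mcm5 with 0.68 and 0.61, and Anln, the cleavage furrow protein anillin, with 0.73 and 0.59. Tyms was also the member that exceeded the median of all values on the fewest arrays. Mki67 stood below the middle of this order, with r of 0.77 and 0.75.

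**Figure D3:**
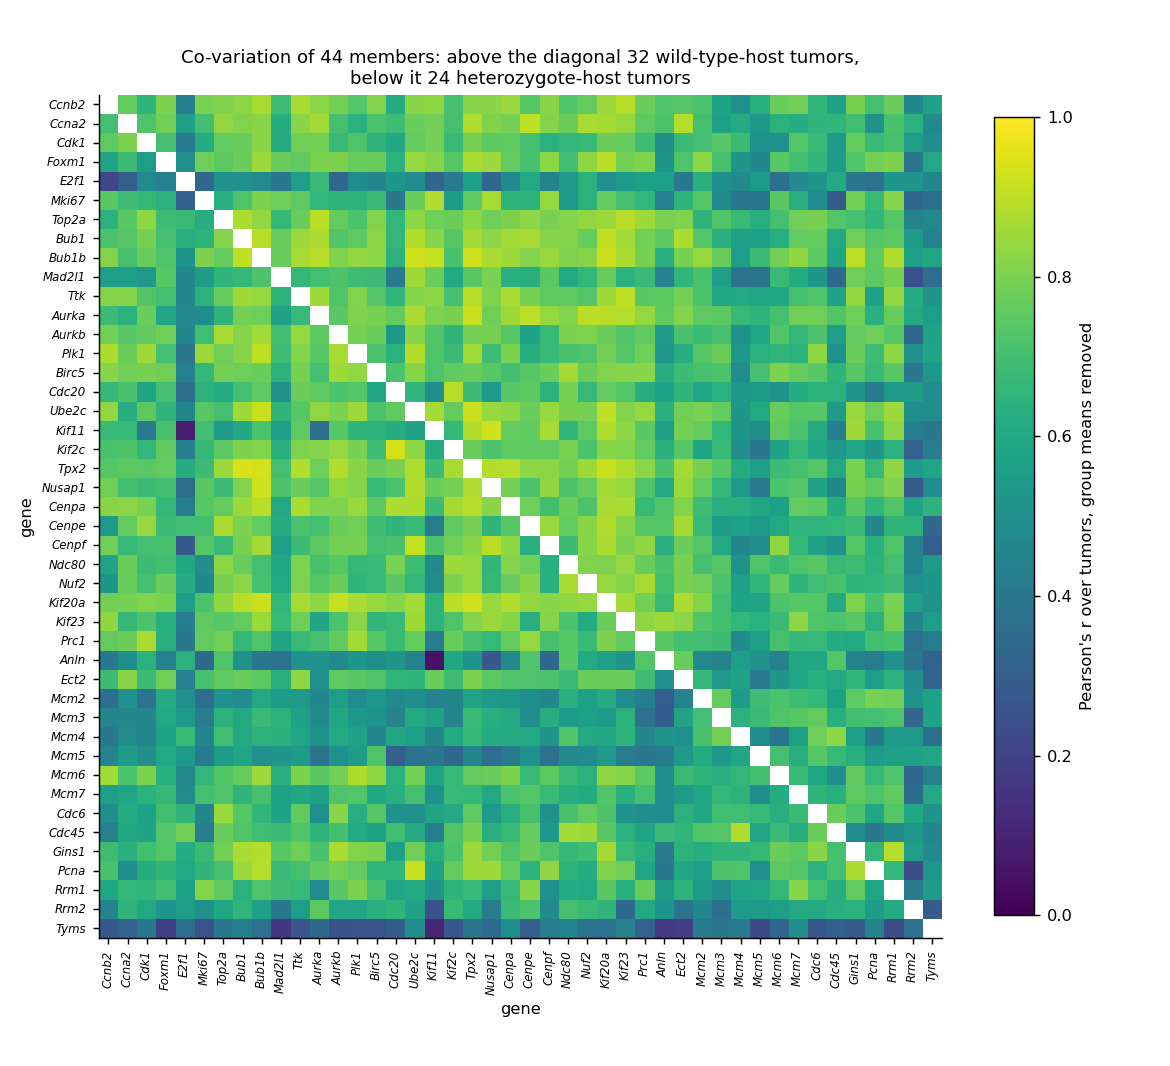
Pearson's r (colour scale, 0 to 1) between 44 members over tumors after group means were removed, with 32 tumors of wild-type hosts above the diagonal and 24 of heterozygote hosts below; genes are ordered by role, from cyclins to nucleotide supply. All 946 pairs are above 0 in both genotypes, and Tyms is among the members with the lowest values in both.

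Outside the members, the 10 genes most like the member mean were Ncapg, Tacc3, Kif18b, Knstrn, Racgap1, Knl1, Arhgap11a, Sgo1, Aspm and Cep55. The measure was r with the member mean, averaged over the genotypes, with 32 and 24 tumors. Ncapg, a subunit of the condensin complex that compacts chromosomes, had r of 0.96 and 0.91, and Cep55, which acts at the final cut between daughter cells, 0.88 and 0.90. Of the 10, 9 belong to the listed mitosis genes, and Knstrn, a spindle protein, does not. Over all 12464 other genes, 534 (4.28%) had an averaged r above 0.5. That held for 70 of 75 other mitosis genes and 32 of 42 other replication genes. Of the 17 E2F and MuvB genes 5 were above 0.5, among them Mybl2, the MuvB partner of late cell cycle genes, at 0.81, E2f7, an E2F repressor, at 0.74, Rbl1 at 0.66 and Lin54 at 0.56, and Rbl2, the pocket protein of resting cells, was at -0.18. The lowest values over all genes, named after they were seen, were those of Gramd1a at -0.67, Zfp715 at -0.67 and Slc8b1 at -0.64.

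Since the members move together, their promoters were searched for the motifs known from cell cycle transcription. Windows ran from 250 bases before to 50 after the start of the gene as RefSeq gives it (GRCm38.p6), and 41 windows of 38 members were found, with Ccnb1, whose expression was not measured, among them. The motifs, on both strands, were the cell cycle homology region core TTTGAA, which MuvB complexes bind, the CCAAT box, bound by NF-Y, and the E2F motifs TTTCCCGC, TTTGGCGC and TTTCGCGC. TTTGAA occurred in 56.1% of member windows, beside 17.9% of all 32851 windows of the same length. CCAAT occurred in 75.6%, beside 37.4%, and an E2F motif in 14.6%, beside 1.84%. The shares differed by role. Among 28 windows of mitosis genes, 75.0% held TTTGAA and 3.57%, the window of Cdk1, an E2F motif. Among 12 windows of replication genes, 16.7% held TTTGAA and 41.7% an E2F motif. CCAAT was common in both, at 75.0% and 83.3%. A match is a description of letters and not a measured binding site.

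The promoters of 4 members, printed to show the arrangement, are given as the 170 bases before the start, 5′ to 3′ on the strand of the gene, with matches of the motifs in capitals. Ccnb2 (cyclin B2, chr9:70421555-70421724, minus strand) and Cdc20 (chr4:118437344-118437513, minus strand) both carry TTTGAA, with 3 and 2 CCAAT boxes, in different arrangements.
Ccnb2: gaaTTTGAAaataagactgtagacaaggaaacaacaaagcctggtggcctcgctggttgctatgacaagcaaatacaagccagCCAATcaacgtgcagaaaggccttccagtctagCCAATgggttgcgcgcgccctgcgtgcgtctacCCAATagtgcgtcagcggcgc
Cdc20: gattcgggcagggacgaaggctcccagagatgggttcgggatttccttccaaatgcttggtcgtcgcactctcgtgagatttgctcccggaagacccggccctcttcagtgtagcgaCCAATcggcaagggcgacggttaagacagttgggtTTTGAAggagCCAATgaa
Mcm6 (chr1:128359706-128359875, minus strand), a helicase subunit, carries E2F motifs instead, of which a pair overlaps on opposite strands in 1 run of capitals and another stands alone at -47, and CCAAT boxes that read ATTGG from the other strand.
Mcm6: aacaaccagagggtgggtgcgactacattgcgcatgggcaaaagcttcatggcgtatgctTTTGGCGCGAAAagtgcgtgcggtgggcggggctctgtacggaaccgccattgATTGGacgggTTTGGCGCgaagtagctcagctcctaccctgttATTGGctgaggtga
Rrm2 (chr12:24708084-24708253, plus strand), among the members that followed the others least, holds 1 CCAAT box and neither of the other motifs in these letters.
Rrm2: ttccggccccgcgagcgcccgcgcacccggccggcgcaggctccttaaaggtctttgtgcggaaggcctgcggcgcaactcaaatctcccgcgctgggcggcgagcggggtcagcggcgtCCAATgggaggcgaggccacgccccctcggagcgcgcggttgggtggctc
Counting back from the start, the CCAAT boxes of Ccnb2 begin at -87, -54 and -21, and the TTTGAA of Cdc20 begins at -18 between boxes at -53 and -8. The printed TTTGAA of Ccnb2 begins at -167. A second TTTGAA of Ccnb2 lies beyond the printed bases, at 4 after the start, on the other side of its CCAAT boxes.

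Once the shared rise and fall was taken out, by regressing each member on the mean of the other members, position on the chromosomes showed in what was left. Of 946 pairs, 9 lay within 5 Mb of each other, and their remaining values had a median r of 0.21 in wild-type and 0.33 in heterozygote hosts. Pairs on different chromosomes, 875 in number, had -0.035 and -0.044, and pairs farther apart on 1 chromosome, 62 in number, 0.16 and 0.22. The 2 highest of all 946 pairs were near neighbors. Cdc20 and Kif2c, a kinesin that takes microtubules apart, lie 1.27 Mb apart on chromosome 4 and had r of 0.73 and 0.81. Mcm4 and Cdc45, both parts of the replicative helicase, lie 3.16 Mb apart on chromosome 16 and had r of 0.68 and 0.72. Not all close pairs did so. Tpx2 and Gins1 on chromosome 2, 1.94 Mb apart, had -0.10 and 0.070.

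The high values of those pairs depended on the probe set. With both genes of a pair left out of the mean, the chosen and a second Kif2c probe set gave r with the Cdc20 probe sets of 0.54 to 0.75 in wild-type and 0.48 to 0.82 in heterozygote hosts. The remaining Kif2c probe set gave 0.15 to 0.18 and 0.080 to 0.21. Likewise the chosen Cdc45 probe set gave 0.66 and 0.70 with the Mcm4 probe sets in wild-type hosts, but the other gave 0.40 and 0.18, and -0.24 and -0.28 in heterozygote hosts. For the chosen probe sets, leaving out the lowest tumor of each genotype gave 0.74 and 0.81 for Cdc20 with Kif2c, and 0.70 and 0.71 for Mcm4 with Cdc45. In wild-type hosts 1 irradiated tumor stood apart in each pair, replicate 12 for Cdc20 with Kif2c and replicate 59 for Mcm4 with Cdc45, and without it r was 0.74 and 0.66.

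**Figure D4:**
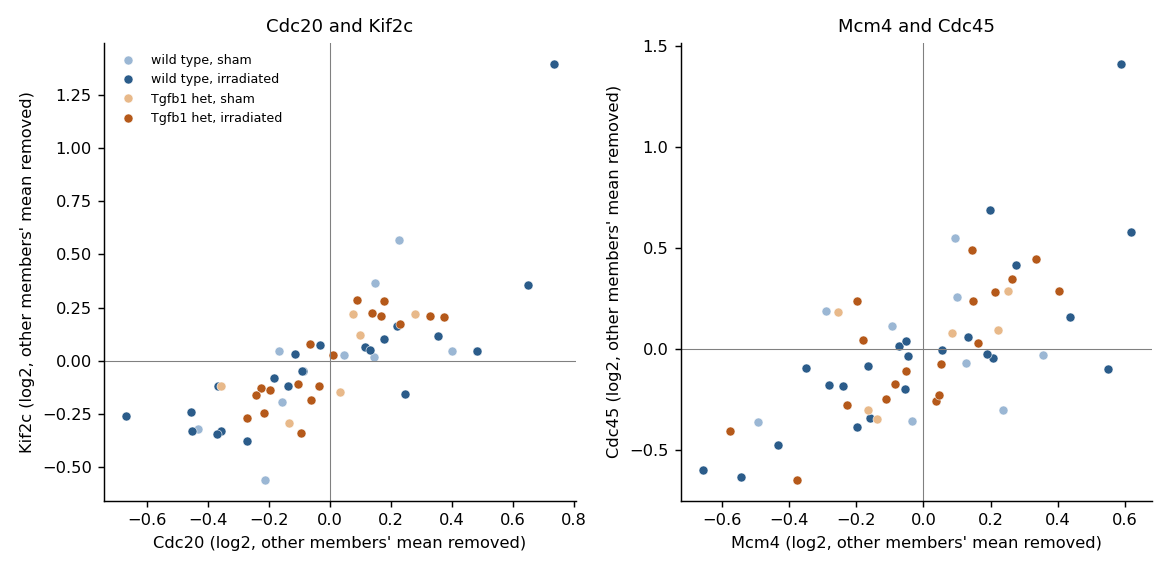
Remaining log2 values of 2 neighboring pairs of members in 56 tumors, after the mean of the other members was regressed out within each host genotype; left, Cdc20 (horizontal) against Kif2c (vertical), right, Mcm4 against Cdc45, coloured by host group. In the left panel, points of all 4 groups run from the lower left to the upper right. In the right panel, points of sham-irradiated wild-type hosts show no clear direction, and the other groups run as in the left panel. In each panel a different tumor of an irradiated wild-type host lies apart at the upper right, with Kif2c at 1.40 and Cdc45 at 1.41.

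The same held against genes outside the list. For each member, the remaining value was set against the mean of all other tested genes within 5 Mb, of which there were 15 for Mad2l1 to 185 for Cdc6. All 44 members had a positive r in both genotypes, with a median of 0.51 in wild-type and 0.49 in heterozygote hosts. Against the neighborhoods of members on other chromosomes, the median r was -0.026 and -0.035, with 45.5% and 44.6% positive, and the middle 90% of these values ran from -0.37 to 0.33 and from -0.42 to 0.37. Mcm5 had the highest averaged r, 0.78 and 0.84, followed by Birc5, the survivin subunit of the passenger complex, with 0.82 and 0.66, the kinetochore motor gene Cenpe with 0.60 and 0.86, Ndc80 with 0.76 and 0.58, and Top2a with 0.69 and 0.65. E2f1, with 0.10 and 0.31, Nuf2, the partner of Ndc80 at the kinetochore, with 0.30 and 0.11, and Aurka, with 0.11 and 0.36, were among the lowest. Neighborhoods of close members, such as Top2a and Cdc6 on chromosome 11, share most of their genes, so the 44 values are not independent. DNA copy number was not measured here.

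**Figure D5:**
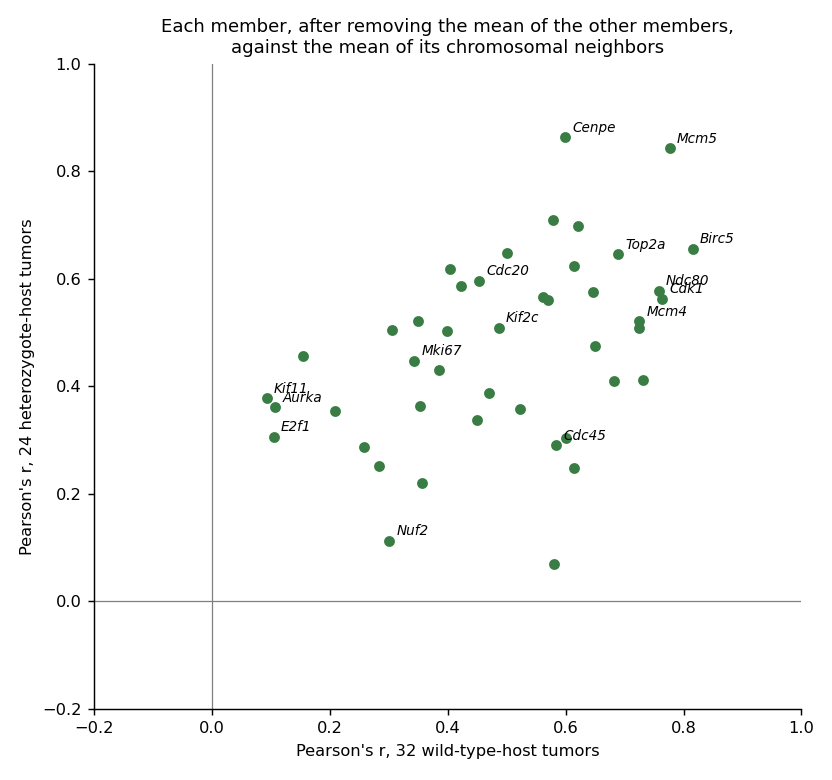
Pearson's r of each of 44 members with the mean of its chromosomal neighbors within 5 Mb, after the other members' mean was regressed out, in 32 tumors of wild-type hosts (horizontal) and 24 of heterozygote hosts (vertical); each point is a member. All 44 points lie above 0 on both axes, with Mcm5 at 0.78 and 0.84.

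Of the 9 members on chromosome 2, 5 lie on its distal part (GRCm38.p6, chr2:150909556-172370886), a stretch chosen after its values were seen and given without a test: Gins1, Tpx2, E2f1, Ube2c and Aurka. Of their irradiation effects in wild-type hosts, 4 were among the 5 lowest, with -0.43 for Aurka, -0.37 for E2f1, -0.34 for Tpx2 and -0.29 for Ube2c, and -0.047 for Gins1. The 198 other genes tested in this stretch had a median of -0.14 in wild-type hosts, with 78.3% negative, beside 50.7% of all genes. In heterozygote hosts their median was -0.036, with 58.6% negative, beside 48.2%.

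Mki67 was also set against 9 other measures over the tumors of each genotype, 18 relations in all, with permutation tests of 100000 draws and Benjamini-Hochberg adjustment over the 18. Of these measures, Mcm2 and Top2a are themselves members. Over the tumors of each genotype, with group means subtracted, all pairs of members were positively correlated, as given above. The direction of the relations with Mcm2 and Top2a was thus known before they were tested. In wild-type hosts (n = 32) Mki67 followed Mcm2, with Pearson's r of 0.74 (permutation p = 1e-05, the smallest these draws can give, adjusted p = 0.00018) and Spearman's rho of 0.74 (permutation p = 1e-05, adjusted p = 0.00018). The Mcm2 relation was 0.65 without the 2 tumors farthest from the median of Mcm2, 0.68 within sham-irradiated and 0.79 within irradiated hosts. Mki67 fell with rising Col1a1, the fibroblast collagen gene, with r of -0.65 (permutation p = 2e-05, adjusted p = 0.00018) and rho of -0.60 (permutation p = 0.00043, adjusted p = 0.00387). This was -0.58 without the 2 farthest tumors, -0.73 and -0.65 within the sham-irradiated and irradiated groups, and -0.68 without the arrays of low 18S. Top2a gave r of 0.63 (permutation p = 0.00014, adjusted p = 0.00084) and rho of 0.54 (permutation p = 0.002, adjusted p = 0.012), and 0.57 without the 2 farthest. Ptprc, the pan-leukocyte marker, gave r of -0.38 (permutation p = 0.0336, adjusted p = 0.0818) and rho of -0.45 (permutation p = 0.0103, adjusted p = 0.0465). Pecam1, an endothelial marker, gave r of -0.47 (permutation p = 0.0185, adjusted p = 0.0666) and rho of -0.36 (permutation p = 0.0439, adjusted p = 0.113), and r was -0.24 without the 2 farthest tumors.

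In heterozygote hosts (n = 24) only Top2a passed by Pearson's r, at 0.63 (permutation p = 0.00109, adjusted p = 0.0049), with a rho of 0.46 (permutation p = 0.0245, adjusted p = 0.0753), and r was 0.45 without the 2 farthest tumors. Mcm2 gave 0.39 (permutation p = 0.0612, adjusted p = 0.122) with a rho of 0.14 (permutation p = 0.501, adjusted p = 0.714), and Col1a1 gave -0.17 (permutation p = 0.434, adjusted p = 0.593) with a rho of 0.0087 (permutation p = 0.969, adjusted p = 0.969). For Mcm2, r was -0.77 within the 6 tumors of sham-irradiated heterozygote hosts and 0.42 within the 18 of irradiated ones. Without the arrays of low 18S it was 0.17. Ptprc gave r of -0.43 (permutation p = 0.0363, adjusted p = 0.0818) with a rho of -0.46 (permutation p = 0.0251, adjusted p = 0.0753), and r was -0.53 without the 2 farthest tumors. Pecam1 gave r of -0.19 (permutation p = 0.365, adjusted p = 0.547) with a rho of -0.049 (permutation p = 0.819, adjusted p = 0.922). The differences between the genotypes in these relations were not tested. The 3' minus 5' difference gave -0.48 in wild-type hosts (permutation p = 0.0302, adjusted p = 0.0818), with a rho of -0.12 (permutation p = 0.516, adjusted p = 0.714), and rested on 2 tumors, without which r was 0.0079. The 18S control gave r of 0.082 and 0.13, and Epcam, the epithelial adhesion gene, 0.13 and 0.21, with adjusted p from 0.538 to 0.741 by permutation. For 18S in wild-type hosts, r was -0.041 within sham-irradiated and 0.44 within irradiated hosts, and 0.46 without the arrays of low 18S. In heterozygote hosts these values were 0.40, 0.14 and -0.15. They were not tested.

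Different probe sets of a member mostly varied together. Of the 44 members, 27 had over 1 probe set above the filter, and their 49 pairs had a median r of 0.89 and 0.91 over tumors. The chosen probe set was of a type that may also bind related transcripts (x_at) for 4 members, Cdc20, Kif2c, Mcm5 and Rrm2, and was shared among transcripts (s_at or a_at) for 13.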

How the data were processed

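Total RNA of 56 tumors was labelled with an Affymetrix 3' kit and hybridised to 1 array each, per the labels' protocols. The authors made the deposited values, which are on a log2 expression scale for each probe set, with RMA, per the submitters' processing notes, in a version not given in the sources used here. Array medians differed between host genotypes, so these were treated as normalized separately and compared only through their irradiation effects. Detection over background was not analysed here, and precision is limited by the number of arrays.

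Of 45101 probe sets, 34958 had 1 gene symbol, 932 several and 9211 none in the platform annotation; only the first were used. Symbols were updated through GRCm38.p6 gene identifiers (12467 of 12508 genes matched). Probe sets had to exceed 5.83, the overall median, on 6 or more arrays, and a gene was represented by its probe set of highest mean. All 56 arrays entered 1 model of 4 group means (limma 3.58.1, lmFit and eBayes, R 4.3.3), with an adjusted p threshold of 0.05 over all genes. The members, gene lists, and tests were chosen with earlier results of these data known. Named with full statistics were, per comparison, members called or otherwise the 3 with the lowest p in each direction, plus Mki67, Top2a, Cdk1, Foxm1, Mcm2, Pcna and E2f1; other genes were the 2 with the lowest p per list and comparison, of which the text gives a part, and the 10 most like the member mean. Fits were tested on simulated data. Alternatives were no filter, a stricter filter (28 arrays), all probe sets, joint quantile normalization, a trended robust eBayes, weighting of arrays, a covariate for 18S or for the 3' minus 5' difference, a fit of the compared groups alone, and each array left out in turn; leaving out arrays of 18S below 11, and, for neighboring pairs, other probe sets and leaving out the lowest or outlying tumors, were added after the data were seen. Promoters are from RefSeq. Sequences and plots were handled in Python 3.11.15 with matplotlib 3.10.9. The gene deleted in the transplants has no level reported here.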

Additional observations from a re-analysis of the deposited data

Results flagged for a closer look

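In groups of 4 to 10 samples, a lone value was looked for in each member and in the member mean, in 90 groups; chance alone gives about 1 in 20 such groups, and 5 were found. Replicate 46 of the sham-irradiated wild-type hosts was far below the other 8 tumors for Kif11, the spindle motor, at 6.49 with the next value at 8.15, for Cenpf at 7.99 with the next at 9.23, and for Ect2, the activator of the cleavage furrow, at 7.14 with the next at 8.51. Its endothelial markers had the highest mean level of all tumors, 12.17, and its 18S control was 11.95. Replicate 61 of the same group was lowest for Cdc6, at 6.91 with the next value at 7.80, on an array with an 18S control of 9.49. Replicate 58 of the sham-irradiated heterozygote hosts was highest for Kif23, a motor of the midzone, at 9.88 with the next value at 8.98. The cause of these values was not tested.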

How the results depend on the processing

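No member was called under any of the 66 other settings (262 counts, all 0), and the lowest limma adjusted p of a named member was 0.201, with array weights. Of 2903 values of named members, 2838 kept their sign and 65 did not, none of them called. Signs turned with the 3' minus 5' covariate for Mad2l1 (-0.026), Cdc6 (-0.080), Aurkb (-0.31) and Foxm1 (-0.23) in heterozygote hosts, for Aurkb (-0.23), Top2a (-0.23) and Mcm2 (-0.099) in the difference between genotypes, and for Pcna (-0.048) and Cdc6 (-0.045) in the average. With 18S as a covariate they turned for Pcna (-0.0083) and Cdk1 (-0.032) in wild-type hosts and for Pcna (-0.027) and Cdc6 (-0.024) in the average. With array weights they turned for Cdk1 in wild-type hosts (-0.081), Pcna in heterozygote hosts (0.0099) and Mki67 in the difference (0.059), and with joint quantile normalization for Top2a in the difference (-0.00082). Without arrays of low 18S, Mki67 (0.025) and Top2a (0.098) turned in wild-type hosts, and Top2a in the difference (-0.15) and the average (0.022). The causes were not tested. Leaving out 1 array at a time gave ranges that crossed 0 for Cdk1 in wild-type hosts (-0.060 to 0.15), for Aurkb (-0.0067 to 0.28), Top2a (-0.31 to 0.016), Foxm1 (-0.011 to 0.17) and Pcna (-0.12 to 0.052) in heterozygote hosts, for Mki67 (-0.21 to 0.065), Top2a (-0.18 to 0.15) and Mcm2 (-0.017 to 0.14) in the difference, and for Pcna (-0.0048 to 0.088) and Cdc6 (-0.0045 to 0.17) in the average. The median of the members then ran from -0.17 to 0.0032 in wild-type hosts, from -0.30 to -0.16 in heterozygote hosts, from -0.24 to -0.015 for the difference and from -0.19 to -0.10 for the average. No paired analysis was possible because the replicate numbers do not recur across groups. With 6 tumors of sham-irradiated heterozygote hosts, standard errors of members ran from 0.15 to 0.32 in that comparison, against 0.12 to 0.27 in wild-type hosts.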
